A study of Taeniopygia guttata with 2 samples.

Results

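Integrin and cadherin adhesion genes were followed through the cells of zebra finch embryonic gonads. The members were all genes of the deposited table whose symbol starts with ITGA, ITGB, PCDH or CDH plus a digit, with CDH5 left out and kept as an endothelial marker, and they numbered 44 of 20511 genes. They were 9 integrin alpha chains, 5 integrin beta chains, 3 further genes with integrin-beta names (ITGBL1, ITGB1BP1 and ITGB1BP2), 16 cadherins and 11 protocadherins. The gonads came from embryos at Hamburger Hamilton stage 28, with 7 males pooled into 1 single-cell library and 7 females pooled into another, without treatment or genetic change. The male and the female library were the only replicates of a cell class, and sex had 1 library on each side.

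Integrins are pairs of an alpha and a beta chain that span the cell membrane, bind matrix proteins such as collagen, laminin and fibronectin, and couple them to the actin skeleton. Cadherins hold neighbouring cells together by calcium-dependent binding, mostly to their own kind, and the classical ones are anchored inside the cell by catenins, whereas protocadherins have other cytoplasmic tails and are best known from the nervous system. In birds, primordial germ cells reach the gonad through the blood and settle among epithelial and mesenchymal cells, so that germ cells and somatic cells meet within one forming organ.

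Of the deposited barcodes, 17054 held at least 2000 unique molecular identifiers (UMIs, each the count of 1 captured RNA molecule), 9461 in the male library and 7593 in the female library, with medians of 9027 and 9126 UMIs. RNA free in the suspension was estimated at 5.27% of UMIs in male and 1.91% in female barcodes, and 18 barcode sequences occurred in both libraries. Barcodes were grouped by their profiles with the 44 members and all marker genes left out. Groups were named from at least 3 raised markers or otherwise by their leading genes. The SOX9/DMRT1-high group was named by its raised SOX9 and DMRT1, which were not among its leading genes. Germ cells had all 8 of their markers raised. The classes held 736 male and 495 female germ cells, 815 and 835 supporting-like, 101 and 1082 CYP17A1-high, 35 and 153 FABP6-high, 2860 and 3051 epithelial-like, 1899 and 961 interstitial-like, 419 and 221 endothelial-like, 89 and 77 macrophage-like, 232 and 240 erythrocyte-like, and 74 and 113 neuroendocrine-like barcodes. A SOX9/DMRT1-high class held 1383 male and 7 female barcodes and a mesonephric tubule-like class 95 male barcodes and 0 female ones, so both are described in the male library alone. A class of 31 barcodes led by S100A12 and 1 further class entered the tests but are not described, so that orders of classes are over the described ones, and 525 barcodes stayed unnamed.

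Levels are in CPM, the UMIs of a gene relative to all UMIs of the summed barcodes of a class in 1 library on the usual common scale, and they are compared between classes of a gene, not between genes. The test set each class against the mean of the other 11 in 1 edgeR quasi-likelihood fit over 24 sums, with adjustment over 12991 genes and an adjusted p of at most 0.05 taken as called. Since classes were drawn from the same barcodes, p-values describe how far a class stands from the others relative to the spread between the 2 libraries. A fitted fold change against classes near 0 depends on the small count added to them and is no bound. Of the members, 41 were tested, and CDH9, CDH17 and ITGA2B, with 23, 30 and 21 UMIs in all, were not. All 41 were higher in at least 1 of the 10 described classes, where 88.4% of all genes tested were, and 23 were lower in at least 1, where 51.7% of all genes were. All fitted changes are relative to edgeR's scaling: scaling by library size alone moved the median of all genes by between 0.15 and 0.53 log2 in 9 described classes and by -2.95 in erythrocyte-like cells.

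**Figure D1:**
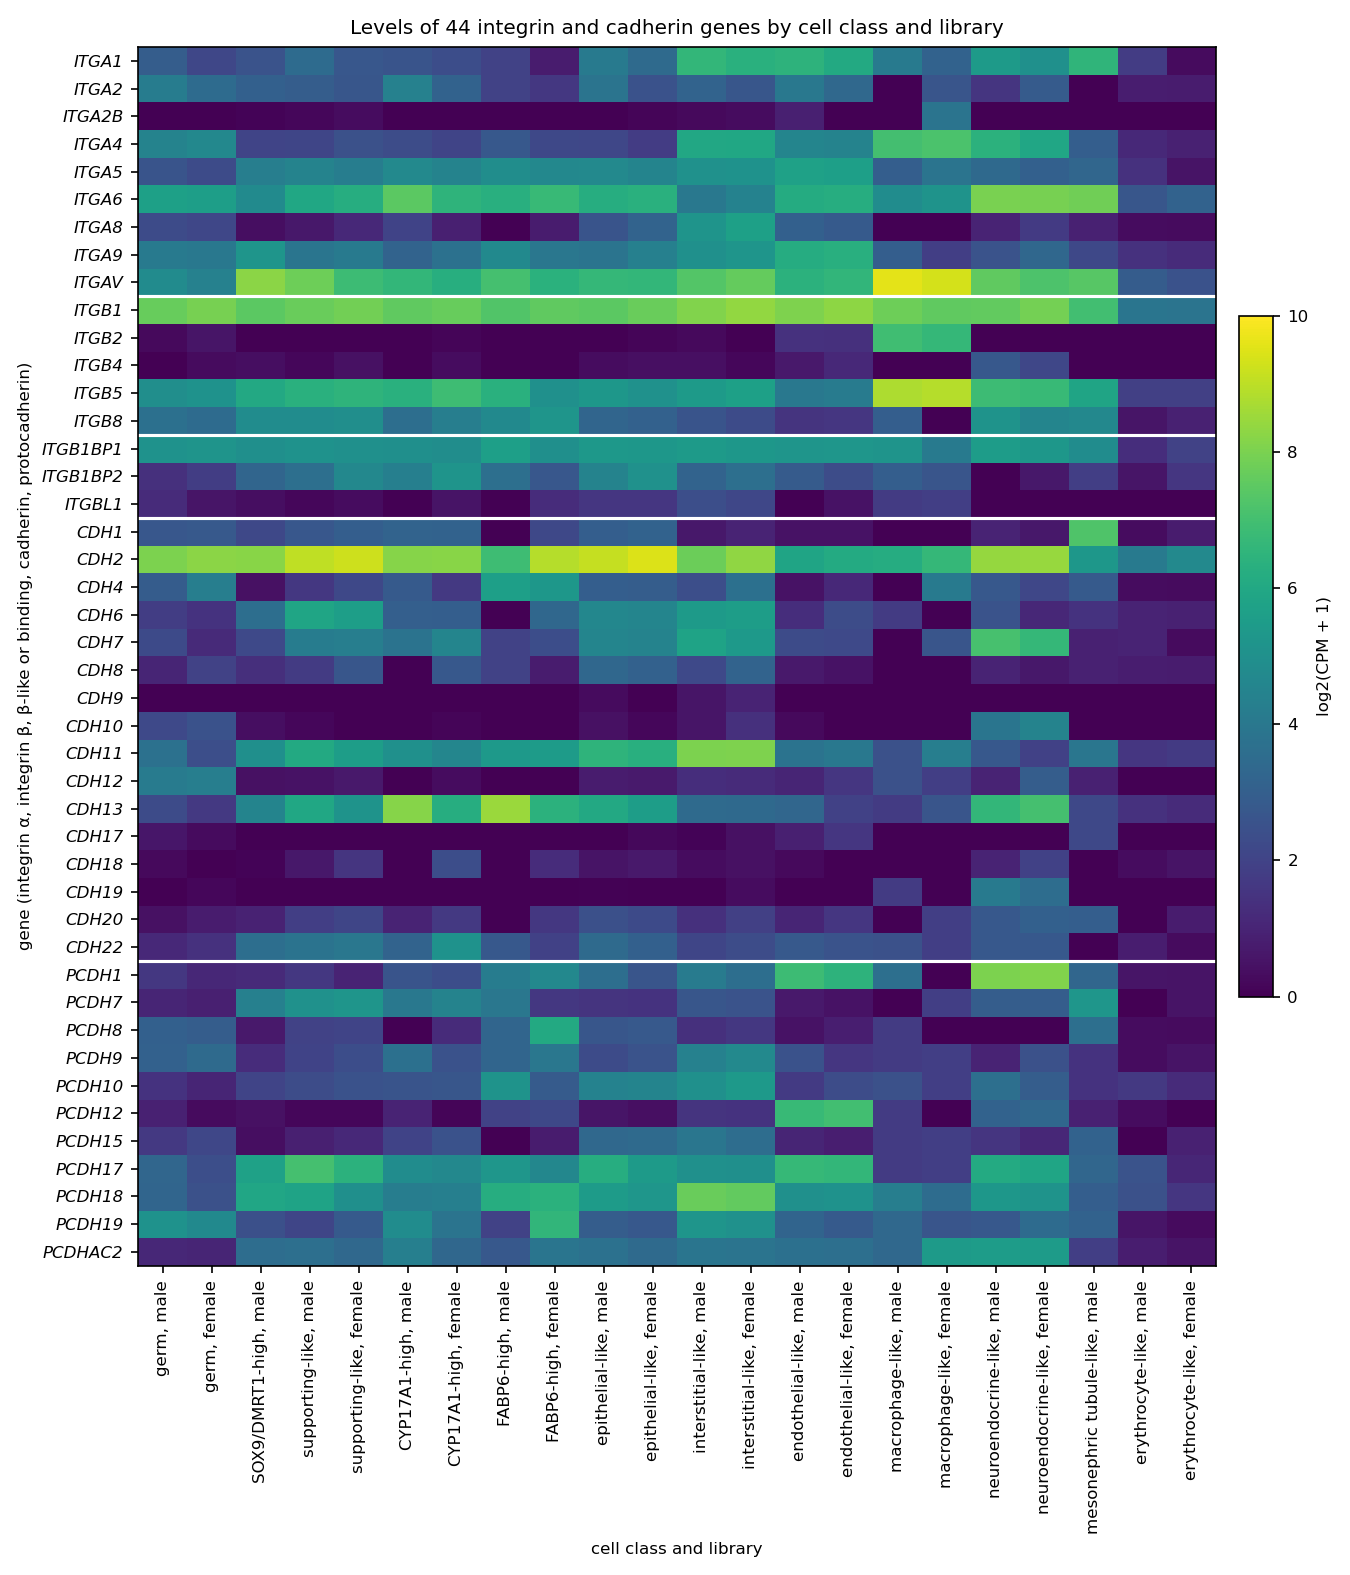
Levels of the 44 members as log2(CPM + 1), one row per gene, with one column for each class in each library. Brighter colours are higher levels. ITGB1 and CDH2 are bright in most columns, the macrophage-like columns stand out for ITGB2, ITGB5 and ITGAV, and the erythrocyte-like columns are dark in nearly all rows.

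The beta 1 chain ITGB1, which pairs with most of the alpha chains listed here, was detected in all described classes. ITGB1 had 124 to 335 CPM in the described class sums outside erythrocyte-like cells, and 13.7 (male) and 13.3 (female) CPM in erythrocyte-like cells. It was highest in interstitial-like cells, with 273 (male) and 335 (female) CPM, and in endothelial-like cells, with 269 (male) and 313 (female) CPM, and both were called higher (log2 fold change 0.60 ± 0.11 (SE), edgeR adjusted p 3.4e-04, and 0.62 ± 0.11 (SE), adjusted p 3.1e-04). The ranges of those 2 classes overlapped. In free RNA the gene stood at 174 (male) and 151 (female) CPM, above every erythrocyte-like value.

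ITGAV, the alpha chain of several receptors for fibronectin and vitronectin, varied more between classes. It had 769.6 (male) and 653 (female) CPM in macrophage-like cells, 159.7 (male) and 195 (female) CPM in interstitial-like cells and 218 (male) and 115 (female) CPM in supporting-like cells. The SOX9/DMRT1-high class of the male library stood at 306 CPM. Germ cells were at the other end with 27.5 (male) and 20.1 (female) CPM, and only erythrocyte-like cells, with 6.61 (male) and 4.75 (female) CPM, were lower among the described classes. Among the described classes, ITGAV was called higher in 4 (macrophage-like, interstitial-like, neuroendocrine-like and supporting-like) and lower in germ and erythrocyte-like cells.

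N-cadherin, CDH2, a classical cadherin of many embryonic tissues, was also detected in all described classes. Its levels were 561 (male) and 713 (female) CPM in epithelial-like and 533 (male) and 607 (female) CPM in supporting-like cells, the 2 described classes in which it was called higher. Endothelial-like cells, which join through CDH5, had 55.6 (male) and 67.4 (female) CPM, and macrophage-like cells had 72.1 (male) and 100.5 (female) CPM, and both were called lower. Free RNA held CDH2 at 293 (male) and 331 (female) CPM, so both of these classes stood below its level in free RNA. Free RNA was itself estimated at only 5.27% (male) and 1.91% (female) of UMIs in barcodes, so this does not make their CDH2 background.

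Germ cells stood below the mean of the somatic classes in most members that differed, and cadherins were called in both directions. 7 of the 41 members tested were higher in germ cells and 15 lower, where 35.4% of all genes tested were higher and 21.8% lower, and the median log2 fold change was -0.51 over the members and 0.18 over all genes. Scaled by library size alone, 13 members were higher. The lower group covered integrin alpha chains (ITGAV, ITGA1, ITGA5, ITGA6), ITGB5, ITGB1BP2, cadherins (CDH6, CDH7, CDH11, CDH13, CDH20) and protocadherins (PCDH7, PCDH10, PCDH17, PCDH18). The higher group was CDH12, CDH10, CDH1, CDH4, ITGA2, PCDH8 and PCDH19. Of these, only CDH12 was highest in germ cells in both libraries, with 17.1 (male) and 18.3 (female) CPM. CDH10 had 3.66 (male) and 4.76 (female) CPM, below neuroendocrine-like cells with 13.6 (male) and 21.0 (female) CPM. CDH1 had 5.63 (male) and 5.95 (female) CPM, below epithelial-like cells with 6.83 (male) and 7.86 (female) CPM. Free RNA held CDH1 at 6.36 (male) and 5.45 (female) CPM. CDH4 stood lower than in FABP6-high cells, with 6.52 (male) and 18.2 (female) CPM. The collagen receptor chain ITGA2 had 17.5 (male) and 10.4 (female) CPM in germ cells (log2 fold change 1.83 ± 0.56 (SE), edgeR adjusted p 0.009), while CYP17A1-high cells reached 20.1 (male) and 7.84 (female) CPM, so these classes overlapped. PCDH19, a delta protocadherin, had 33.2 (male) and 26.2 (female) CPM in germ cells and 36.6 (male) and 32.1 (female) CPM in interstitial-like cells, the 2 overlapping.

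CDH11, a cadherin of mesenchymal cells, was at 12.1 (male) and 4.29 (female) CPM in germ cells, against 263 (male) and 265 (female) CPM in interstitial-like cells (germ log2 fold change -2.38 ± 0.28 (SE), edgeR adjusted p 5.7e-07). The beta 5 chain ITGB5 stood at 29.6 (male) and 33.1 (female) CPM in germ cells, overlapping epithelial-like cells, with 38.5 (male) and 32.2 (female) CPM. The integrins detected at 10 CPM or more in germ cells of both libraries included ITGB1, ITGA6, ITGB5, ITGAV, ITGA4, ITGA9, ITGB8 and ITGA2, and 12 members in all reached that level there, against 22 in interstitial-like and 18 in supporting-like cells.

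Within the germ cells, CDH12, CDH10, CDH4 and CDH1 were higher in cells positive for NANOG and SOX3, transcription factors of the pluripotent state. Positive cells, with at least 1 UMI of both genes, numbered 234 male and 188 female, and negative cells, with 0 UMIs of both, 324 male and 200 female, while 178 male and 107 female germ cells had a UMI of only 1 of them. Of 26 members tested, 6 were higher in positive cells (20.9% of all 11385 genes) and 6 lower (17.9% of all genes). All called cadherins (CDH12, CDH10, CDH4, CDH1) were higher, along with PCDH15 and ITGB5, and all called alpha chains (ITGA4, ITGA6, ITGAV) were lower, along with ITGB8, PCDH17 and PCDH19. These shares, 23.1% in each direction, are close to those of all genes, so the counts alone do not set the members apart. Scaling by library size moved the median of all genes by 0.25 log2 here, and both counts stayed at 6. With status from SOX3 alone 2 members were lower, and PCDH17, ITGB8, ITGAV and ITGA4 lost their calls (adjusted p 0.11, 0.056, 0.067 and 0.066 in edgeR), as PCDH17 did with NANOG alone (adjusted p 0.12). With cells first thinned to 5000 UMIs 3 were higher, so CDH12, CDH10, CDH4 and CDH1 were not all called there.

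CDH12, a type II cadherin known from the brain, had 40.3 (male) and 38.8 (female) CPM in positive cells, against 1.63 (male) and 1.74 (female) CPM in negative cells. The groups did not overlap, and cells with 1 of the 2 factors lay between with 4.19 (male) and 3.74 (female) CPM (log2 fold change 4.29 ± 0.30 (SE), edgeR adjusted p 2.5e-04). CDH10, its neighbour on chromosome 2, had 8.86 (male) and 10.4 (female) CPM in positive cells and 0 (male) and 0.349 (female) CPM in negative cells (log2 fold change 5.57 ± 0.78 (SE), edgeR adjusted p 0.0016), the male negative sum holding 0 UMIs. In the RefSeq annotation of assembly bTaeGut7.mat no other protein-coding gene lies between CDH12, CDH10 and CDH9, and CDH9 had 0 UMIs in germ cells of either library. Both levels rest on few molecules, those of CDH10 on fewer. A CDH10 UMI was in 29 of 234 male and 30 of 188 female positive cells, and in 0 of 324 and 1 of 200 negative cells. For CDH12, 35.9% of male and 43.6% of female positive cells (median 17923 and 19897.5 UMIs) had a UMI. In negative cells (median 14352.5 and 16518 UMIs) 2.16% and 2.0% had a CDH12 UMI. Thinned to 2000 UMIs per cell, the CDH12 shares were 6.76% and 7.08% in positive cells and 0.637% and 0.271% in negative cells. Erythrocyte-like cells (median 18859.5 and 18773.5 UMIs), which should lack the gene but hold little of any member, had a CDH12 UMI in 0 of 232 male and 0 of 240 female barcodes, which by counting error alone allows shares with a UMI of up to 1.29% and 1.25%.

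R-cadherin, CDH4, was higher in positive cells in both libraries but differed between them, with 12.8 (male) and 35.5 (female) CPM, against 1.87 (male) and 2.44 (female) CPM in negative cells (log2 fold change 3.24 ± 0.59 (SE), edgeR adjusted p 0.0046). E-cadherin, CDH1, the classical cadherin of epithelia and of pluripotent cells in mammals, had 12.6 (male) and 10.4 (female) CPM in positive cells and 1.63 (male) and 2.44 (female) CPM in negative cells (log2 fold change 2.28 ± 0.42 (SE), adjusted p 0.0049 in edgeR). N-cadherin was not called, as CDH2 had 296 (male) and 328 (female) CPM in positive cells and 223 (male) and 269 (female) CPM in negative cells, with a fitted log2 fold change of 0.10 ± 0.14 (SE) and an adjusted p of 0.62 in edgeR. PCDH15, called higher at low levels, stood at 4.66 (male) and 6.28 (female) CPM in positive cells and 0.934 (male) and 1.05 (female) CPM in negative cells.

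Among the integrins, the groups moved in both directions. ITGB5, which pairs with the alpha V chain, had 45.5 (male) and 48.6 (female) CPM in positive cells and 16.8 (male) and 17.8 (female) CPM in negative cells (log2 fold change 1.20 ± 0.19 (SE), edgeR adjusted p 0.0023), a call that was lost with cells first thinned to 5000 UMIs (0.57, adjusted p 0.19). Its partner ITGAV went the other way, at 17.0 (male) and 9.83 (female) CPM in positive cells and 31.8 (male) and 28.2 (female) CPM in negative cells (log2 fold change -1.39 ± 0.28 (SE), edgeR adjusted p 0.007). ITGB8, another beta chain that pairs with alpha V, was also lower in positive cells, with 6.76 (male) and 6.01 (female) CPM, against 13.8 (male) and 17.1 (female) CPM in negative cells (edgeR adjusted p 0.0076). The laminin receptor chain ITGA6 had 31.3 (male) and 31.1 (female) CPM in positive cells and 61.2 (male) and 58.6 (female) CPM in negative cells, about the same in both libraries (log2 fold change -1.19 ± 0.16 (SE), edgeR adjusted p 0.0013). ITGA4, which binds fibronectin and VCAM1, had 15.6 (male) and 15.6 (female) CPM in positive cells and 24.8 (male) and 33.1 (female) CPM in negative cells (edgeR adjusted p 0.0085). ITGB1, shared by ITGA4 and ITGA6, was not called, with 217 (male) and 278 (female) CPM in positive cells and 183 (male) and 209 (female) CPM in negative cells (edgeR adjusted p 0.68).

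The delta protocadherins PCDH17 and PCDH19 were lower in positive cells. PCDH17 had 3.96 (male) and 0.819 (female) CPM in positive cells and 11.4 (male) and 10.1 (female) CPM in negative cells (log2 fold change -2.36 ± 0.56 (SE), edgeR adjusted p 0.013), and PCDH19 had 21.2 (male) and 18.8 (female) CPM in positive cells and 39.2 (male) and 34.9 (female) CPM in negative cells (log2 fold change -1.13 ± 0.19 (SE), edgeR adjusted p 0.0034). With the library as a block, which pairs the sums of 1 pool, 2 more members passed: PCDH8, with 5.60 (male) and 3.55 (female) CPM in positive and 9.11 (male) and 7.67 (female) CPM in negative cells (edgeR adjusted p 0.055 without the block and 0.0094 with it), and PCDH9, with 8.86 (male) and 16.7 (female) CPM in positive and 6.07 (male) and 5.93 (female) CPM in negative cells (0.14 without and 0.047 with it). All 12 calls were kept with the block. With 2 libraries, a block leaves few sums from which to estimate spread, so its p-values are given no weight. With it, the edgeR adjusted p of CDH12 fell from 2.5e-04 to 8.7e-35. By counting error alone, male PCDH9 intervals overlapped, at 6.27 to 12.2 CPM in positive and 3.97 to 8.9 CPM in negative cells. The female PCDH9 intervals, 12.7 to 21.4 and 3.45 to 9.49 CPM, were apart.

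Other measures moved with NANOG and SOX3. The division genes CDK1, UBE2C and TOP2A were lower in positive cells, CDK1 at 174 (male) and 98.0 (female) CPM, against 313 (male) and 363 (female) CPM in negative cells. Markers of supporting cells summed to 274 (male) and 158 (female) CPM in positive cells and 122 (male) and 73.2 (female) CPM in negative cells, over 7 markers of which 0 to 2 were at 0 in a sum. The 7 macrophage markers summed to 62.5 (male) and 80.2 (female) CPM in positive cells and 36.4 (male) and 35.9 (female) CPM in negative cells, with 0 to 2 at 0 in a sum. Most positive cells, 182 male and 165 female, lay in a single germ cell group. There DMRT1 was the only supporting marker and PTPRC the only macrophage marker raised at least 1.5-fold over all other barcodes. The levels of single markers behind these sums are not given here. The 7 interstitial markers, 0 of them at 0, summed to 121 (male) and 56.8 (female) CPM in positive cells and 141 (male) and 125 (female) CPM in negative cells. Hemoglobin and SLC4A1 UMIs, 3 erythrocyte markers, summed to 587 (male) and 402 (female) CPM in positive cells and 3423 (male) and 422 (female) CPM in negative cells. Negative cells also included 84 male and 55 female barcodes of a shallow group with a median of 2735.5 UMIs. With at least 5000 UMIs per barcode, a minimum above the median of the shallow group, the same 12 members were called with the same signs. The part of the marker differences in the member calls was not tested.

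**Figure D2:**
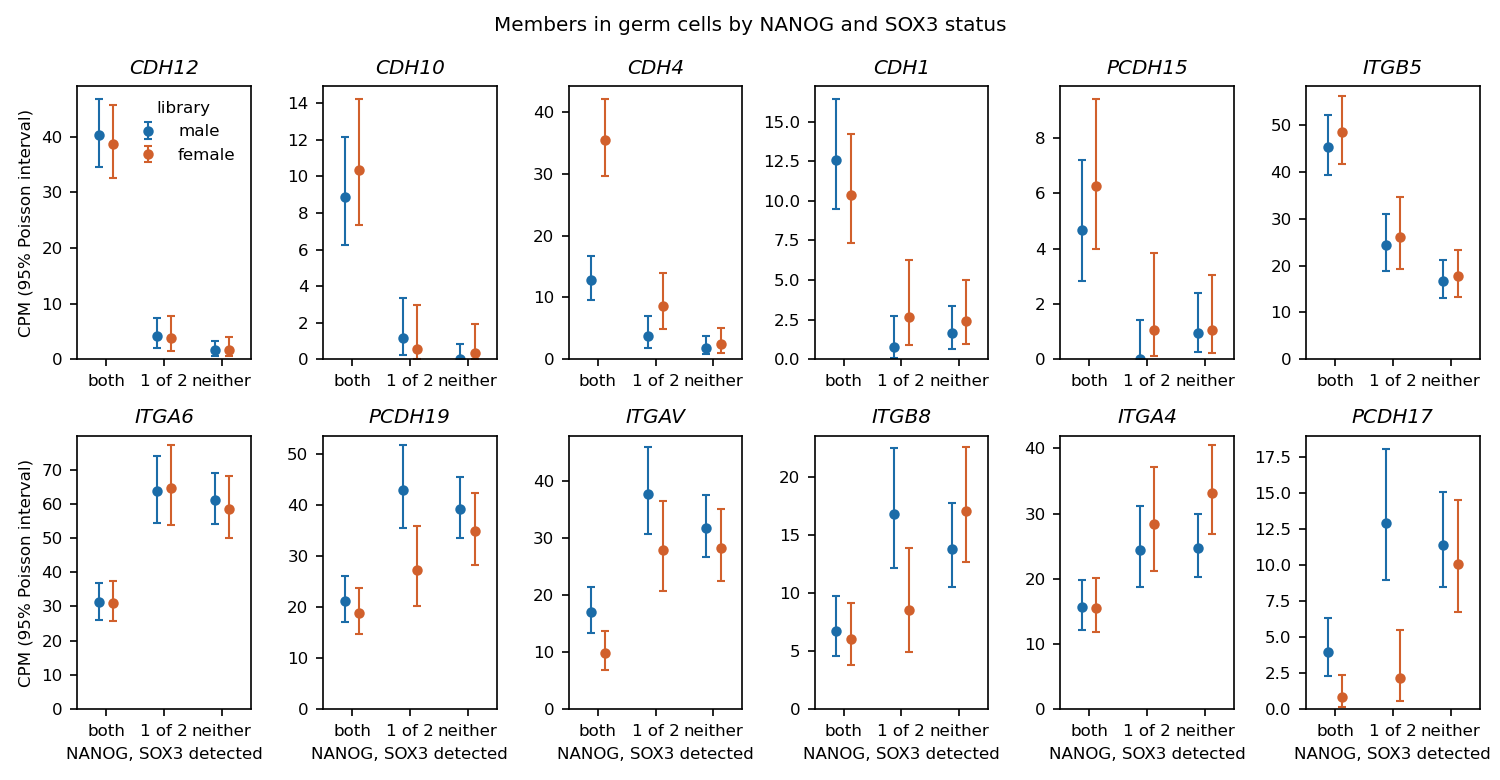
Levels in CPM of the 12 members called between NANOG and SOX3 positive and negative germ cells, with male sums in blue, female sums in orange, and bars for the 95% Poisson interval of counting. Cells with UMIs of both genes stand left of those with 1 and those with neither, and for CDH12 the positive sums reach 40.3 (male) and 38.8 (female) CPM.

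The partners of these receptors were counted from 4 lists, one of whose genes, ITGB1BP1, is also a member. In germ cells against the other classes, where 35.4% of all genes were higher and 21.8% lower, 1 of 6 catenins tested was higher (CTNNA3) and 5 lower, 2 of 18 cytoplasmic integrin partners were higher (FERMT1, ACTN1) and 11 lower, 0 of 9 matrix ligands were higher and 6 lower, and 2 of 11 other junction molecules were higher (NECTIN3, EPCAM) and 3 lower. Between NANOG and SOX3 positive and negative germ cells, where 20.9% of all genes were higher and 17.9% lower, 6 of 9 junction molecules were higher (NCAM1, JAM2, JAM3, EPCAM, CADM1, AFDN) and 1 lower (TJP1). NCAM1, a homophilic adhesion molecule of the immunoglobulin family, had 235 (male) and 233 (female) CPM in positive cells and 27.1 (male) and 40.8 (female) CPM in negative cells, a change beyond the spread of the libraries (log2 fold change 2.56 ± 0.20 (SE), edgeR adjusted p 3.7e-04). Of 17 integrin partners, PTK2, the focal adhesion kinase, PARVA, LIMS2 and PXN were higher and ZYX and ACTN1 lower. CTNNA2 and JUP were higher and CTNND2 and CTNND1 lower among 6 catenins, and FN1 and MFGE8 were higher and THBS1 lower among 10 ligands.

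Interstitial-like cells, the collagen-rich mesenchyme of the gonad, had the most members called higher among the described classes. 19 of the 41 members tested were higher in interstitial-like cells and 2 lower, where 20.7% of all genes tested were higher and 8.13% lower, and the median log2 fold change was 0.998 over the members and 0.14 over all genes. Integrins of mesenchyme and collagen led, with ITGA8 at 35.3 (male) and 50.6 (female) CPM in interstitial-like cells, and at most 7.46 (male, endothelial-like) and 7.997 (female, epithelial-like) CPM in the other described classes (log2 fold change 5.55 ± 0.33 (SE), edgeR adjusted p 1.2e-09). ITGA8 is best known from kidney mesenchyme, where its ligand is nephronectin. ITGA1, a collagen receptor chain, had 97.8 (male) and 80.0 (female) CPM in interstitial-like cells and 87.1 (male) and 66.2 (female) CPM in endothelial-like cells, and the 2 classes overlapped (3.13 ± 0.25 (SE) on the log2 scale, edgeR adjusted p 1.2e-08). CDH11 had 263 (male) and 265 (female) CPM in interstitial-like cells and at most 89.99 (male) and 77.2 (female) CPM in the other described classes, in epithelial-like cells (log2 fold change 3.32 ± 0.17 (SE), edgeR adjusted p 3.8e-11). PCDH18, the protocadherin with the most UMIs, had 212 (male) and 191 (female) CPM in interstitial-like cells, and at most 75.0 (male) and 82.0 (female) CPM in the other described classes, in FABP6-high cells (edgeR adjusted p 1.6e-10). The laminin receptor chain ITGA6 and ITGB8 were the only called members lower there, ITGA6 with 15.2 (male) and 20.3 (female) CPM.

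The mesenchyme was not uniform. One group of 178 barcodes was raised in MGP and in ACTA2, though ACTA2 was also a leading gene of the largest interstitial-like group. The group of 178 held ITGA1 at 197 (male) and 132 (female) CPM and ITGA4 at 199.9 (male) and 166 (female) CPM. PCDH10 stood there at 118 (male) and 122 (female) CPM and PCDH18 at 366 (male) and 313 (female) CPM. These levels were all above the class as a whole. In the largest interstitial-like group, of 1290 barcodes, the same genes were lower, with ITGA1 at 98.2 (male) and 71.6 (female) CPM and PCDH10 at 55.2 (male) and 41.6 (female) CPM, but CDH6 stood at 76.3 (male) and 64.1 (female) CPM and CDH7 at 76.7 (male) and 48.0 (female) CPM, against 46.5 (male) and 18.6 (female) CPM and 22.2 (male) and 7.74 (female) CPM in the smaller group. These levels of groups within a class are a description with no test. PCDH18 and PCDH10 are neighbours on chromosome 4 of bTaeGut7.mat with no other protein-coding gene between them, and their levels were ordered alike over 12 classes (Spearman's rho 0.86 in the male and 0.83 in the female library). Classes of 1 library share their depth and free RNA. Other neighbouring pairs had lower rho, 0.64 and 0.60 for CDH12 and CDH10, 0.44 and 0.34 for CDH10 and CDH9 and 0.21 and 0.39 for CDH19 and CDH7. CDH9 held 23 UMIs in all and CDH19 41, and both were at 0 in most classes. Ties at 0 thus weigh on the rho of their pairs, which cannot show whether those neighbours are alike.

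Epithelial-like cells, with EMX2 and LHX9 raised in each of their groups, had the highest CDH2 level in each library. KRT18 was raised in only 1 of these groups, of 1794 barcodes, and also in supporting-like and SOX9/DMRT1-high groups. 16 of the 41 members tested were higher in epithelial-like cells and 3 lower, where 19.7% of all genes tested were higher and 7.81% lower, and the median log2 fold change was 0.58 over the members and 0.15 over all genes. CDH2 had 561 (male) and 713 (female) CPM in epithelial-like cells and 533 (male) and 607 (female) CPM in supporting-like cells, and their ranges overlapped (log2 fold change against all other classes 1.53 ± 0.25 (SE), edgeR adjusted p 1.3e-04). Low-level cadherins were raised as well, with CDH8 at 9.18 (male) and 7.49 (female) CPM and CDH1 at 6.83 (male) and 7.86 (female) CPM. The fibronectin receptor chain ITGA4 was called lower, with 3.38 (male) and 2.40 (female) CPM, and ITGA1 had 15.7 (male) and 10.1 (female) CPM. ITGA6 stood at 75.0 (male) and 80.9 (female) CPM.

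Supporting-like cells, the lineage of Sertoli and granulosa cells, had CDH2 and PCDH7 among their members called higher. 11 of the 41 members tested were higher in supporting-like cells and 2 lower, where 17.0% of all genes tested were higher and 7.5% lower, and the median log2 fold change was 0.44 over the members and 0.11 over all genes. Scaled by library size alone, 17 were higher. PCDH7 had 32.7 (male) and 36.4 (female) CPM in supporting-like cells (log2 fold change 3.45 ± 0.26 (SE), edgeR adjusted p 1.4e-08). Epithelial-like cells had 1.84 (male) and 1.75 (female) CPM of PCDH7. It was also called higher in CYP17A1-high cells, with 15.1 (male) and 21.1 (female) CPM, and male SOX9/DMRT1-high cells had 19.4 CPM. The male mesonephric tubule-like sum, at 36.9 CPM of PCDH7, was as high as supporting-like cells. PCDH17 had 130.4 (male) and 86.0 (female) CPM and CDH6 had 58.4 (male) and 47.8 (female) CPM, both called higher. The SOX9/DMRT1-high cells of the male library had 11.1 CPM of CDH6, 51.2 CPM of PCDH17 and 294 CPM of CDH2, each under both supporting-like sums, and 306 CPM of ITGAV, above both.

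CYP17A1-high and FABP6-high cells, which hold transcripts of steroid synthesis, were high in T-cadherin, and FABP6-high cells also in R-cadherin. 11 of the 41 members tested were higher in CYP17A1-high cells and 3 lower, where 17.8% of all genes tested were higher and 9.65% lower, and the median log2 fold change was 0.37 over the members and 0.11 over all genes. 9 of the 41 members tested were higher in FABP6-high cells and 2 lower, where 12.2% of all genes tested were higher and 5.78% lower, and the median log2 fold change was 0.23 over the members and 0.01 over all genes. CDH13, or T-cadherin, which lacks a cytoplasmic tail and is held by a lipid anchor, had 293 (male) and 74.9 (female) CPM in CYP17A1-high cells and 358 (male) and 84.8 (female) CPM in FABP6-high cells, against 1.36 to 64.8 CPM in the described class sums other than these and the neuroendocrine-like ones. Both classes had their male value well above the female one. In neuroendocrine-like cells CDH13 was at 96.1 (male) and 130 (female) CPM, in the female library above both CYP17A1-high and FABP6-high cells. CDH4 had 49.0 (male) and 38.2 (female) CPM in FABP6-high cells and at most 6.83 (male, epithelial-like) and 18.2 (female, germ) CPM in the other described classes (log2 fold change 3.27 ± 0.50 (SE), edgeR adjusted p 8.8e-05). The cadherin CDH22 had 8.05 (male) and 33.0 (female) CPM in CYP17A1-high cells, where the male value overlapped other classes, and CDH18 was called higher there at 0 (male) and 4.19 (female) CPM. ITGA6 stood at 176 (male) and 89.7 (female) CPM in CYP17A1-high cells and ITGB5 at 79.5 (male) and 117 (female) CPM.

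In endothelial-like cells 6 integrin alpha chains were higher (ITGA9, ITGA1, ITGA8, ITGA2, ITGA5 and ITGA4) and 5 cadherins lower (CDH4, CDH6, CDH2, CDH7 and CDH11), while 3 protocadherins were higher (PCDH12, PCDH1 and PCDH17) and 3 lower (PCDH7, PCDH15 and PCDH10). 11 of the 41 members tested were higher in endothelial-like cells and 10 lower, where 19.2% of all genes tested were higher and 10.1% lower, and the median log2 fold change was -0.30 over the members and 0.06 over all genes. PCDH12, a protocadherin of endothelial junctions, had 105 (male) and 124 (female) CPM in endothelial-like cells, and at most 7.77 (male) and 9.09 (female) CPM in the other described classes, in neuroendocrine-like cells (log2 fold change 8.05 ± 0.24 (SE), edgeR adjusted p 6.4e-14). These levels did not overlap with those of any other class. ITGA9, a receptor chain for tenascin that is needed for lymphatic valves in mice, had 71.1 (male) and 77.5 (female) CPM there and at most 36.3 (male, SOX9/DMRT1-high) and 36.3 (female, interstitial-like) CPM in the other described classes (edgeR adjusted p 6.4e-10). ITGA5, the fibronectin receptor chain, had 52.2 (male) and 48.8 (female) CPM, and at most 32.0 (male) and 32.9 (female) CPM in the other described classes, in interstitial-like cells (edgeR adjusted p 1.5e-08). The endothelial marker CDH5 is not a member, so sums of cadherins leave it out and do not give all cadherin RNA of these cells. The 16 cadherins among the members summed to 93.5 (male) and 106 (female) CPM in endothelial-like cells. In epithelial-like cells they summed to 801 (male) and 915 (female) CPM, and CDH2 made up most of the sum in each class. FN1, NPNT and THBS1 were the 3 of 9 ligands called lower, while 9 of 18 integrin partners were higher and 1 lower, TLN1, PTK2 and PXN among those higher.

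A small endothelial-like group of 39 male and 27 female barcodes, raised in LYVE1 and FLT4, genes known from lymphatic endothelium, differed from the main group. ITGA9 had 176 (male) and 133 (female) CPM in the small group and 62.3 (male) and 70.5 (female) CPM in the main group. ITGA4 had 123 (male) and 68.3 (female) CPM in the small group and 13.9 (male) and 15.5 (female) CPM in the main group, a spread that the level of the whole class does not show. PCDH17 and PCDH1 ran the other way, PCDH17 with 8.02 (male) and 25.2 (female) CPM in the small group and 111 (male) and 106 (female) CPM in the main group, and PCDH1 with 13.4 (male) and 3.59 (female) CPM in the small group and 124 (male) and 98.2 (female) CPM in the main group. These are levels without a test, and the small sums rest on few UMIs.

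Macrophage-like cells were marked by 3 integrin chains. 5 of the 41 members tested were higher in macrophage-like cells and 5 lower, where 15.4% of all genes tested were higher and 9.9% lower, and the median log2 fold change was -0.70 over the members and -0.11 over all genes. With the library as a block, 3 were lower. ITGB2, the beta chain of leukocyte integrins, had 121 (male) and 100.5 (female) CPM in macrophage-like cells and at most 1.66 CPM in any other described class, and the groups were clearly apart (edgeR adjusted p 1.8e-10). ITGB5 had 435 (male) and 479 (female) CPM in macrophage-like cells, and at most 115 (male, neuroendocrine-like) and 117 (female, CYP17A1-high) CPM in the other described classes (log2 fold change 3.52 ± 0.17 (SE), edgeR adjusted p 5.1e-12). Its partner ITGAV had 769.6 (male) and 653 (female) CPM in macrophage-like cells, over every other class in both libraries (log2 fold change 2.93 ± 0.16 (SE), edgeR adjusted p 3.3e-11). ITGA4 followed them with 128 (male) and 143 (female) CPM. These barcodes were the shallowest named class, with medians of 3906 (male) and 3617 (female) UMIs, so a member at 1 UMI already stood at 2.33 or 2.64 CPM. The platelet integrin chain ITGA2B was listed at 0 (male) and 13.2 (female) CPM there and was not tested. Its female value came from 1.30% of the 77 female barcodes and does not describe the class.

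In erythrocyte-like cells, 0 of 41 members were called higher, where 16.3% of all genes tested were, and 5 were lower (ITGAV, ITGB5, ITGA5, ITGB1 and ITGB1BP1), where 13.2% of all genes were. At an unadjusted p under 0.05 the edgeR count was also 0 higher, with 7 lower, and DESeq2 called 0 higher and 3 lower. Their median depth, 18859.5 (male) and 18773.5 (female) UMIs, was the deepest of the named classes, and 2 members (ITGB1 and CDH2) reached 10 CPM in both libraries. CDH2 was at 16.4 (male) and 25.1 (female) CPM. Scaled by library size alone, 23 members were lower in this class.

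The neuroendocrine-like class had 18 members higher, several of them cadherins known from neural tissue, but its name fits only some of its barcodes. 18 of the 41 members tested were higher in neuroendocrine-like cells and 5 lower, where 19.3% of all genes tested were higher and 10.7% lower, and the median log2 fold change was 0.68 over the members and 0.05 over all genes. PCDH1 had 261 (male) and 273 (female) CPM (log2 fold change 6.20 ± 0.24 (SE), edgeR adjusted p 8.4e-13), CDH7 had 135 (male) and 101 (female) CPM (edgeR adjusted p 1.9e-10), ITGA6 had 252 (male) and 244 (female) CPM (edgeR adjusted p 8.3e-10) and PCDHAC2, of the clustered protocadherins, had 45.6 (male) and 43.7 (female) CPM (edgeR adjusted p 7.2e-07). The markers showed a mixture: 36 male and 50 female barcodes had a UMI of SOX10, a transcription factor of neural crest and glia, and 38 male and 63 female barcodes had 0. In SOX10 positive barcodes chromogranin A (CHGA) was at 1.92 (male) and 1.19 (female) CPM and FOXD3, another factor of the neural crest, at 51.7 (male) and 20.3 (female) CPM, while SOX10 negative barcodes had 6450 (male) and 6947 (female) CPM of CHGA and 1.97 (male) and 3.25 (female) CPM of FOXD3. With classes from marker UMIs alone, 9 members were higher in this class and 0 lower, and CDH7 (log2 fold change 1.01, edgeR adjusted p 0.21) and ITGA6 (0.20, adjusted p 0.71) lost their calls. The split by SOX10 was made after the levels were seen and is a description with no test.

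The members divided between the SOX10 positive and negative barcodes. The laminin receptor chain ITGA6 had 414 (male) and 422 (female) CPM in SOX10 positive and 86.6 (male) and 81.3 (female) CPM in SOX10 negative barcodes. CDH7, a type II cadherin of the migrating neural crest in chick embryos, had 239 (male) and 189.8 (female) CPM in SOX10 positive and 27.6 (male) and 19.5 (female) CPM in SOX10 negative barcodes. ITGAV had 328 (male) and 247 (female) CPM in SOX10 positive and 39.4 (male) and 56.3 (female) CPM in SOX10 negative barcodes. CDH19, a cadherin of the neural crest and Schwann lineage, had 30.7 (male) and 22.7 (female) CPM in SOX10 positive and 1.97 (male) and 0 (female) CPM in SOX10 negative barcodes, and CDH10 had 26.8 (male) and 33.4 (female) CPM in SOX10 positive and 0 (male) and 9.75 (female) CPM in SOX10 negative barcodes. CDH13, PCDH17 and PCDHAC2 were instead higher without SOX10. CDH13 had 1.92 (male) and 1.19 (female) CPM in SOX10 positive and 193 (male) and 247 (female) CPM in SOX10 negative barcodes. PCDH17 had 7.66 (male) and 5.97 (female) CPM in SOX10 positive and 132 (male) and 104 (female) CPM in SOX10 negative barcodes, and PCDHAC2 had 3.83 (male) and 2.39 (female) CPM in SOX10 positive and 88.6 (male) and 81.3 (female) CPM in SOX10 negative barcodes. PCDH1 was high in both, at 314 (male) and 356 (female) CPM in SOX10 positive and 207 (male) and 198 (female) CPM in SOX10 negative barcodes. Over all 41 members tested, 15 were higher and 11 lower in the SOX10 positive barcodes of both libraries without overlap, where 20.2% of all 12991 genes were higher and 32.4% lower in that way. The genes given here were picked from them after their levels were seen.

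**Figure D3:**
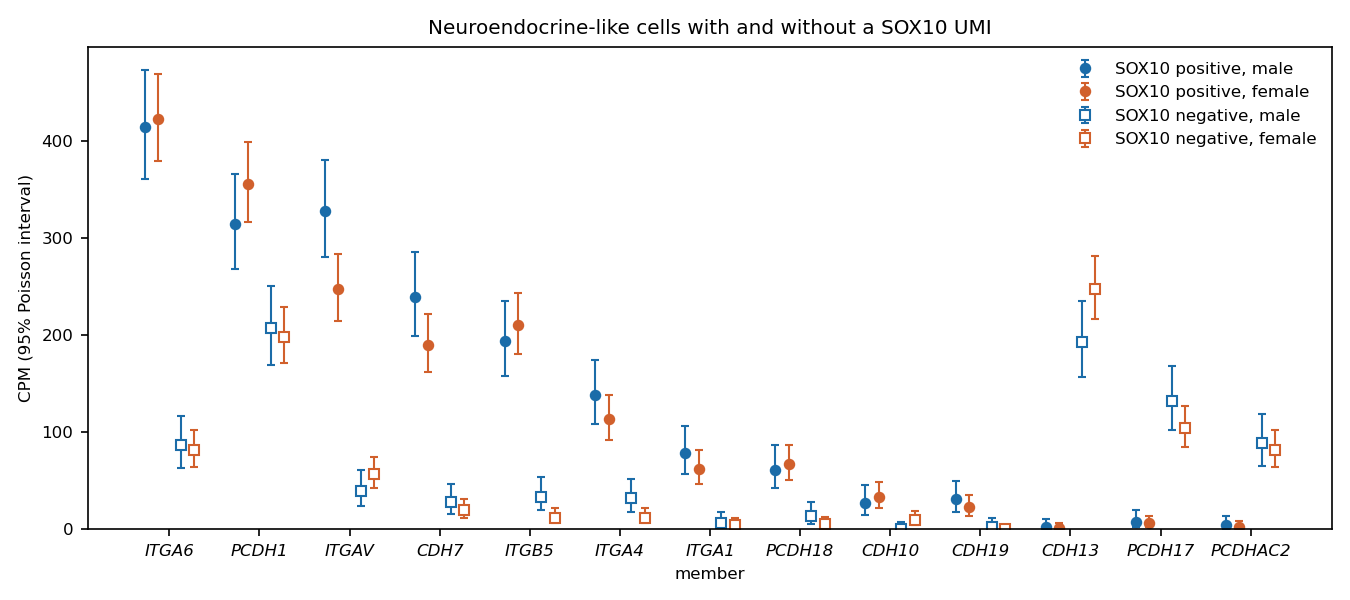
Levels in CPM of 13 members in SOX10 positive (filled) and SOX10 negative (open) barcodes of the neuroendocrine-like class, male in blue and female in orange, with 95% Poisson intervals. ITGA6, CDH7 and ITGAV are higher in the filled points and CDH13, PCDH17 and PCDHAC2 in the open ones.

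**Figure D4:**
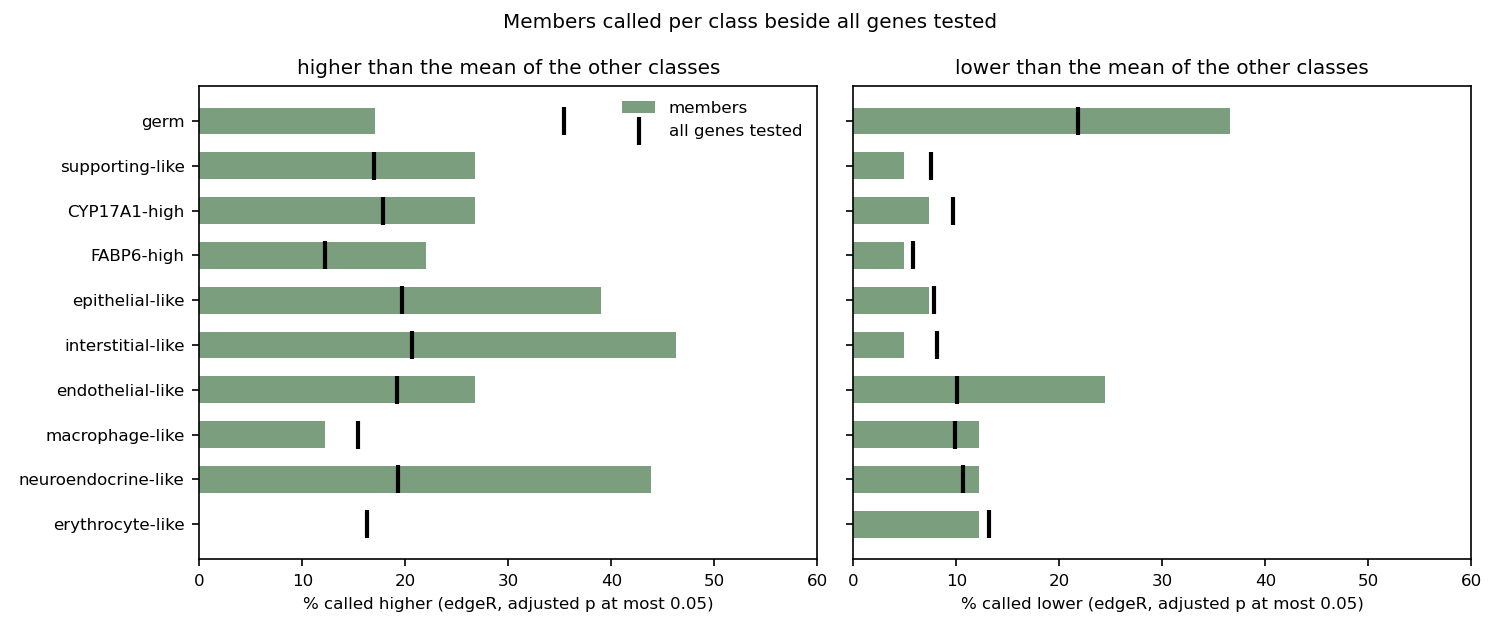
Share in percent of the 41 tested members called higher (left panel) or lower (right panel) in each of 10 classes by edgeR, with a tick for the share of all 12991 genes called. Interstitial-like and neuroendocrine-like cells exceed their ticks most, with 19 and 18 members higher, and germ cells are the class with 15 members lower.

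The lists of partners were counted in the other classes too, over 18 integrin cytoplasmic partners such as talin, vinculin and the parvins, 9 matrix ligands, 11 other junction molecules and 6 catenins. In supporting-like cells (17.0% of all genes higher and 7.5% lower), the counts higher and lower were 0 and 3 for partners, 4 and 0 for ligands, 6 and 0 for junction molecules and 3 and 1 for catenins. In CYP17A1-high cells (17.8% of all genes higher and 9.65% lower), the counts higher and lower were 2 and 3 for partners, 4 and 0 for ligands, 7 and 0 for junction molecules and 2 and 0 for catenins. In FABP6-high cells (12.2% of all genes higher and 5.78% lower), the counts higher and lower were 3 and 4 for partners, 3 and 2 for ligands, 3 and 0 for junction molecules and 0 and 2 for catenins. In epithelial-like cells (19.7% of all genes higher and 7.81% lower), the counts higher and lower were 3 and 2 for partners, 5 and 1 for ligands, 7 and 1 for junction molecules and 2 and 1 for catenins. At most 3 cytoplasmic partners were higher in any of supporting-like, CYP17A1-high, FABP6-high and epithelial-like cells. In interstitial-like cells (20.7% of all genes higher and 8.13% lower), the counts higher and lower were 11 and 2 for partners, 6 and 1 for ligands, 3 and 2 for junction molecules and 2 and 1 for catenins. These cells had the most partners and ligands higher among the described classes. In endothelial-like cells (19.2% of all genes higher and 10.1% lower), the counts higher and lower were 9 and 1 for partners, 0 and 3 for ligands, 4 and 5 for junction molecules and 3 and 2 for catenins. In macrophage-like cells (15.4% of all genes higher and 9.9% lower), the counts higher and lower were 8 and 4 for partners, 1 and 4 for ligands, 2 and 3 for junction molecules and 2 and 1 for catenins. Endothelial-like and macrophage-like cells had 9 and 8 cytoplasmic partners higher, and 0 and 1 ligands. In neuroendocrine-like cells (19.3% of all genes higher and 10.7% lower), the counts higher and lower were 6 and 4 for partners, 2 and 4 for ligands, 5 and 2 for junction molecules and 3 and 0 for catenins. In erythrocyte-like cells (16.3% of all genes higher and 13.2% lower), the counts higher and lower were 1 and 14 for partners, 0 and 1 for ligands, 0 and 3 for junction molecules and 0 and 3 for catenins.

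A few members were seen mainly in classes outside the tests or at very low levels. E-cadherin, CDH1, had 150.1 CPM in the mesonephric tubule-like barcodes of the male library, and in every other described class sum it was at most 8.05 CPM. In the same barcodes ITGA6 stood at 225 CPM, ITGA1 at 93.1 CPM and CDH2 at 37.8 CPM. ITGB4, the partner of the alpha 6 chain in hemidesmosomes, had 5.83 (male) and 3.41 (female) CPM in neuroendocrine-like cells and at most 1.21 CPM in the others described, and CDH20 was at most 7.38 CPM in any tested class described. ITGBL1, a secreted protein that resembles a beta chain, had 4.30 (male) and 3.35 (female) CPM in interstitial-like cells. ITGB1BP1, which binds the tail of the beta 1 chain, was at 15.9 to 49.0 CPM in the described classes outside erythrocyte-like cells. It was called higher in interstitial-like and neuroendocrine-like cells and lower in erythrocyte-like cells.

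With 5 CPM added to both, male and female levels of a member within a class were within 2-fold for nearly all pairs. The added 5 CPM draws low levels together, so a member at a low level can differ by over 2-fold in CPM and not be counted. CDH11 in germ cells, with 12.1 (male) and 4.29 (female) CPM, is such a member. Free RNA held CDH11 at 115 (male) and 73.8 (female) CPM, and the part of free RNA in its germ cell levels is not given here. With 1 library per sex no test was possible. Intervals cover counting error only, and a pair is described where the log2 ratio with 5 CPM added to both levels passed 2-fold with at least 20 UMIs. Of 217 pairs of a member and a described class, 3 were past 2-fold higher in male cells and 6 higher in female cells, where 1.07% of 88739 pairs of all genes were past it in the male and 0.965% in the female direction. Of the 9 pairs, 3 lay in CYP17A1-high and 5 in FABP6-high cells, the 2 of the 10 classes with the most uneven numbers of male and female barcodes. Of all genes with at least 20 UMIs, 2.48% in CYP17A1-high and 2.31% in FABP6-high cells were past 2-fold in the male direction. In the female direction these shares were 2.7% and 5.67%, so both classes stood above the pooled shares. Whether such a difference is of sex, pool or library cannot be told apart.

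CDH13 accounted for 2 of the 3 pairs that were higher in male cells. In CYP17A1-high cells it had 293 CPM (95% interval 260.3 to 329) in male and 74.9 CPM (69.9 to 80.2) in female cells (log2 ratio 1.90), and in FABP6-high cells 358 CPM (95% interval 297 to 426) in male and 84.8 CPM (70.4 to 101) in female cells (log2 ratio 2.01). The intervals were apart in both classes. The other pair was ITGB5 in FABP6-high cells, with 80.7 CPM (95% interval 53.6 to 117) in male and 31.3 CPM (22.8 to 41.8) in female cells. In the female direction, CDH4 in germ cells had 6.52 CPM (95% interval 5.11 to 8.20) in male and 18.2 CPM (15.4 to 21.3) in female cells (log2 ratio -1.01). By the ratio with CPM added, it was the one pair past 2-fold among germ cells. In CYP17A1-high cells CDH22 had 8.05 CPM (95% interval 3.48 to 15.9) in male and 33.0 CPM (29.7 to 36.6) in female cells, and CDH8 0 CPM (95% interval 0 to 3.71) in male and 5.74 CPM (4.41 to 7.35) in female cells. FABP6-high cells gave the other pairs, in 35 male barcodes: CDH2 had 118 CPM (95% interval 84.8 to 160.4) in male and 475 CPM (440.2 to 512) in female cells, PCDH8 8.65 CPM (95% interval 1.78 to 25.3) in male and 66.7 CPM (54.0 to 81.4) in female cells, and PCDH19 2.88 CPM (95% interval 0.0730 to 16.1) in male and 95.2 CPM (79.9 to 113) in female cells. The PCDH19 difference turned round with classes from marker UMIs alone (male over female log2 ratio 0.36).

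Birds have 2 Z chromosomes in males and 1 in females, and genes of the Z are compensated only in part. The Z-linked genes had a median male over female log2 ratio of 0.45 to 0.71 in the 10 classes, while autosomal genes had medians of -0.13 to 0.03, and the members outside the Z had medians between -0.40 and 0.10. In the RefSeq annotation of bTaeGut7.mat, ITGA1 and ITGA2 are on the Z. The log2 ratio of ITGA1 was above 0 in each of the 10 classes, between 0.14 and 0.72, and in interstitial-like cells it was 0.27. For ITGA2 the ratio was 0.55 in germ cells, 0.97 in CYP17A1-high and 0.90 in epithelial-like cells, and it was below 0 in 2 classes, macrophage-like and neuroendocrine-like, where its levels lay between 0 and 6.25 CPM.

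**Figure D5:**
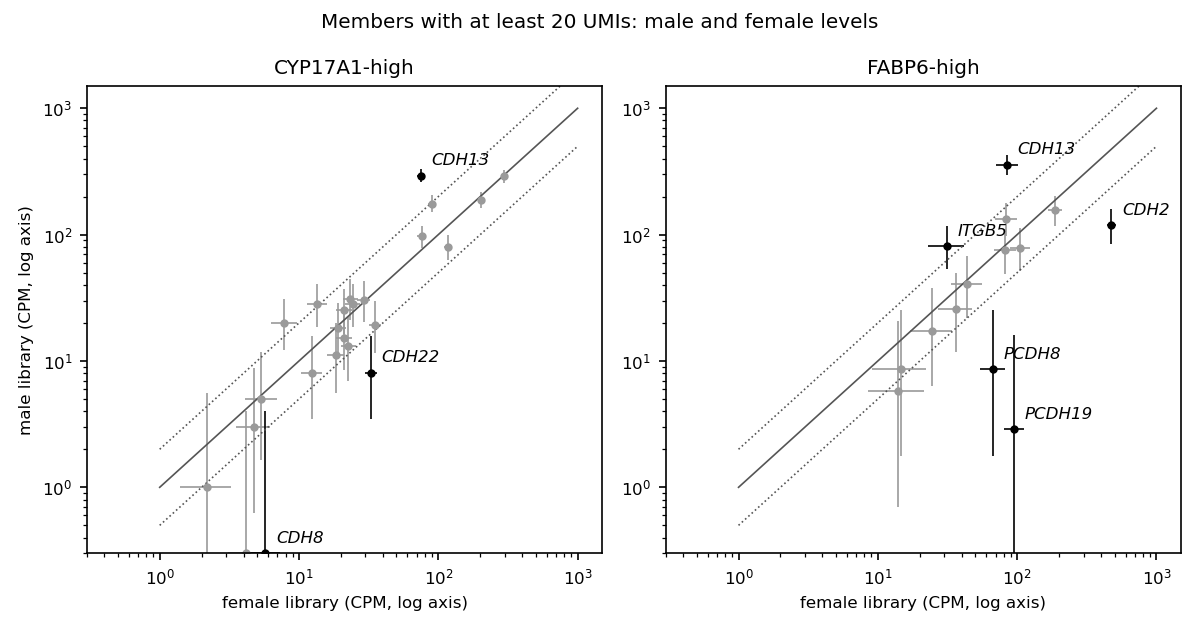
Levels of the members in CPM on log axes, female on the horizontal and male on the vertical axis, in CYP17A1-high and FABP6-high cells, with a solid line of equal levels and dotted lines of 2-fold. Levels under 0.3 CPM are drawn at 0.3, and CDH13 lies above the upper dotted line in both panels.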

How the data were processed

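Gonad cells of 7 male and 7 female zebra finch embryos, pooled by sex, were captured with droplet 3′ chemistry. The authors counted reads with Cell Ranger 5.0.0 against bTaeGut1_v1 and deposited whole UMI counts per gene and barcode, not normalized. The library was read from the barcode suffix. Of 6794880 barcodes listed per library, 78503 male and 21429 female ones held at least 200 genes. Barcodes with at least 2000 UMIs were clustered (scanpy 1.11.5, 2000 variable genes, 30 components, 20 neighbours, Leiden resolution 1) without the members and markers. A cluster was named from 3 or more markers raised at least 1.5-fold over all other barcodes, or otherwise by single raised genes. Names are rebuilt here and may differ from those of the study. No doublet caller was run: doublets stayed in, and an alternative left out barcodes with markers of a second class.

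UMIs were summed per library and class and tested with edgeR 4.0.16 in R 4.3.3 (quasi-likelihood, TMM scaling, filterByExpr, Benjamini-Hochberg over all genes). DESeq2 1.42.0, library size scaling, no filter, a library block, 5000 UMIs, free RNA subtracted and classes from marker UMIs alone were alternatives, and 2 more, without erythrocyte-like cells and with at least 3 UMIs of NANOG and SOX3, were added after seeing the data. Sums of 1 library came from 1 pool and deviated together (Pearson's r of male over female log2 ratios 0.453 over 8740 genes between positive and negative germ cells, and 0.598 over 10756 genes between epithelial-like and interstitial-like cells), so they pair. Replicates are libraries, and Poisson intervals cover counting error only. Free RNA was read from barcodes with at most 100 UMIs. After the fits, the tests were also run on simulated counts, drawn at the spread estimated in the real fits and without pairing of sums.

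Members were named singly where they were called, had at least 20 CPM in a class and stood higher there than in every other class (at most 4 per class), where they were called between germ cells with at least 10 CPM, where a pair passed 2-fold between the sexes, and as the gene with the most UMIs of each family. Others were named after their values were seen. Members and lists were chosen with earlier results of these data known. Of the listed partner genes, 10 symbols were not found in the table. RefSeq genes of bTaeGut7.mat, another assembly than that of the counts, gave chromosomes and neighbours for 41 members by symbol, and no coordinates are given. No sequence is shown. One class of cells and 1 marker gene are not reported here.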

Additional observations from a re-analysis of the deposited data

Results flagged for a closer look

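For 3 members, the level in a class lay above the mean of the other classes in one library and below it in the other, by at least 0.5 log2 each way with 5 CPM added. PCDH19, a delta protocadherin, in FABP6-high cells stood at -0.87 in the male and 2.72 in the female library, and its male over female ratio turned round with classes from marker UMIs alone (log2 ratio 0.36). ITGB5, a beta chain that pairs with alpha V, in FABP6-high cells stood at 0.85 in the male and -0.60 in the female library. CDH8 in CYP17A1-high cells stood at -0.52 in the male and 0.51 in the female library. These differences were not tested, since each sex is 1 library, and the FABP6-high class holds 35 male barcodes.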

How the results depend on the processing

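The counts were of members called in a class, of members called between germ cells and of pairs past 2-fold between the sexes. They kept within 1.5 times in 182 of 214 combinations of a count and an alternative. Scaled by library size alone, 13 members were higher in germ and 17 in supporting-like cells, and 1 was lower in epithelial-like, 3 in macrophage-like and 23 in erythrocyte-like cells. DESeq2 called 8 lower in supporting-like, 5 in CYP17A1-high, 5 in epithelial-like, 4 in interstitial-like and 3 in erythrocyte-like cells. With classes from marker UMIs alone, 7 were higher and 1 lower in CYP17A1-high, 0 lower in FABP6-high, 1 lower in interstitial-like, 5 lower in endothelial-like, 3 lower in macrophage-like, 2 lower in erythrocyte-like, and 9 higher and 0 lower in neuroendocrine-like cells, where CDH7 and ITGA6 lost their calls. Without barcodes carrying a second class's markers, 5 were lower in supporting-like and 8 in macrophage-like cells. With a minimum of 5000 UMIs, 2 were lower in macrophage-like cells. Subtracting free RNA left 2 lower in macrophage-like cells, the library block 3, and leaving out erythrocyte-like cells gave 5 lower in FABP6-high cells. With the library as a replicate block no other count moved by over 1.5 times. Between NANOG and SOX3 positive and negative germ cells, 3 were higher when cells were thinned to 5000 UMIs first. ITGB5 was among those lost, and CDH12, CDH10, CDH4 and CDH1 were not all called. With SOX3 alone 2 were lower. Of the pairs past 2-fold between the sexes, the male direction gave 10 with 1 CPM added, 17 at 1.5-fold, 5 with a minimum of 5000 UMIs and 7 with classes from marker UMIs, and the female direction 14 at 1.5-fold. PCDH19 in FABP6-high cells reversed, with a male over female log2 ratio of 0.36 for classes from marker UMIs. Leaving out 1 library gives values with no test. The causes were not tested. Depth limits the smallest described sums most, male FABP6-high (346819 UMIs) and male and female macrophage-like cells (430084 and 378235 UMIs).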
